A study of Mus musculus with 24 samples.

Results

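The mitochondrial protein import machinery was followed here in mouse pancreatic organoids through the mRNAs of its TOM, TIM, motor and processing subunits. Members were the entries of the expression table that carried a single gene symbol beginning with Timm or Tomm, or the symbol Pam16, Dnajc19, Grpel1, Hspa9, Pmpca or Pmpcb, and that had a count above 0 in all 24 libraries. The rule found 23 entries, for 22 genes, among 19895 entries in the table and 11457 single-symbol entries that met the same count rule. It matched 24 single-symbol entries in all, and the one left out was Timm8a2, which was at 0 in 19 libraries. Dnajc19, Grpel1, Pmpca, Timm8b, Timm9, Timm13 and Tomm40l occurred only in 7 joint entries, in which the table merges several gene symbols, and these are not members. Timm8a1 had 2 entries with the same transcript accession but different counts, which are called its first and second entry in table order.

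The study profiled the mRNA of organoids, which are epithelial cultures grown in a basement membrane gel, to ask how tumour cells differ from normal duct cells in mRNA translation and how an inhibitor of the RNA helicase eIF4A alters it. N organoids were normal, wildtype ductal isolates of C57Bl/6J mice. KP organoids came from pancreatic ductal adenocarcinomas of mice on that background whose alleles included Pdx1-Cre and Trp53 +/LSL-R172H, so that Cre-dependent alleles were switched on in cells of the Pdx1-positive pancreatic lineage. Each type was treated for 1 h with vehicle, which was DMSO and is labelled Control, or with 10 nM CR-31, a rocaglate that inhibits eIF4A and is labelled CR1-31-b. EGF and N-acetylcysteine were left out of the medium for the experiments, and cycloheximide, which holds ribosomes on mRNA, was added before lysis. From each of 12 lysates, 3 replicates for each of 4 conditions, one library was made from mRNA carrying at least 3 ribosomes, called polysome-associated mRNA, and one from total mRNA, which gave 8 groups of 3 libraries. The labels give replicate numbers but do not say whether replicates were separate mice or separate cultures, so p-values measure only the spread between these samples.

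The libraries held 47308461 to 267463046 counted reads, with a median of 102984735.5, and each member had between 362 and 130114 counts in a library. All 9 duct epithelium markers had counts in every library, with a summed level of 6615 to 12884 CPM, the counts of a gene scaled to a common library total, in N and 5475 to 9577 in KP libraries. The summed levels of other cell types were far lower. They reached at most 5.15 CPM for acinar, 0.160 CPM for endocrine, 0.814 CPM for fibroblast, 29.5 CPM for immune and 0.343 CPM for endothelial markers. This holds for the sums but not for every gene. The duct marker Cftr had a median of 0.641 RPKM, a scale that also divides by transcript length. The acinar marker Cela1 had 3.16 RPKM and the immune marker Cd68 3.73 RPKM. The highest immune level was in a KP vehicle polysome library, beside a median of 4.84 CPM over all libraries. Library names begin with a prefix whose meaning the labels do not give. N and KP libraries never shared it, so organoid type and prefix cannot be told apart, whereas each prefix held both vehicle and CR-31 libraries. Because these are bulk samples, fewer cells of a type and less RNA per cell cannot be told apart either.

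Nearly all mitochondrial proteins are encoded in the nucleus, made on cytosolic ribosomes and threaded into the organelle. The TOM complex of the outer membrane recognises and translocates the precursors, the small TIM chaperones carry hydrophobic ones across the intermembrane space, and the TIM22 and TIM23 complexes insert them into, or pass them through, the inner membrane. An ATP-driven motor of Hsp70 type pulls the chain into the matrix, where a peptidase removes the targeting sequence.

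On the RPKM scale, which divides by transcript length and by depth, the highest mean over the 24 libraries belonged to Timm23, a core channel subunit of the TIM23 complex, at 283 RPKM, above 97.5% of the genes tested. It was followed by the small TOM subunit Tomm6 at 223 RPKM, the receptor Tomm22 at 187 RPKM and the small subunit Tomm5 at 170 RPKM. In the remaining roles the most abundant mRNAs were the second Timm8a1 entry among the small TIM chaperones at 103 RPKM, Pam16 in the import motor at 69.3 RPKM, Pmpcb in the processing peptidase at 34.2 RPKM, Tomm34 at 17.2 RPKM, Timm22 at 15.2 RPKM and Timmdc1 at 12.7 RPKM. Timm21, an accessory subunit that links TIM23 to the respiratory chain, had the lowest mean, 8.79 RPKM. As a share of all counted reads in vehicle, the members together took 0.224 ± 0.046% (SD, n = 3) of N polysome-associated and 0.239 ± 0.031% of N total mRNA. In KP organoids the corresponding shares were 0.313 ± 0.043% and 0.297 ± 0.026%.

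Promoter windows from RefSeq on the mouse build GRCm38.p6, reaching from 250 bases before to 50 bases after each start site, were found for 19 of the member genes. They were searched on both strands for 3 motifs known from promoters of mitochondrial protein genes and 3 general ones. The core CCGGAAG of ETS family factors, with its reverse complement CTTCCGG, occurred in 8 of 19 member genes (42.1%) and in 19.2% of 8857 tested genes with a window. The NRF1 palindrome, GCGCA then any base then GCGC, occurred in 2 of them (10.5%, against 11.4%) and the YY1 motif AAGATGGC in 1 (5.26%, against 5.10%). The E-box CACGTG occurred in 3 (15.8%, against 11.6%), the CCAAT box in 6 (31.6%, against 43.3%) and the letters TATAAA in 1 (5.26%, against 8.84%). The ETS core was in the windows of Pmpcb, Timm10, Timm10b, Timm23, Timmdc1, Tomm22, Tomm34 and Tomm70a, the NRF1 palindrome in those of Pam16 and Tomm20, and the YY1 motif in that of Timm50. A match is a run of letters, and factor binding was not measured. Of the members with the ETS core, Pmpcb, Timm10 and Tomm34 were not among those called higher on KP polysomes in the next paragraphs. The stretches below, written on the gene's own strand, show the ETS, NRF1 and YY1 motifs, in capitals. They come only from members that were called, so they do not relate a motif to the difference.
Tomm22 (ETS core, plus strand, chr15:79670813-79670842): ccggctcgcttCCGGAAGacgctctgtcca
Timm23 (ETS core, minus strand, chr14:32201863-32201892): ggagccggcgcCCGGAAGgtcagcgtggtg
Tomm70a (ETS core, plus strand, chr16:57121623-57121652): gccttctgaccCCGGAAGtggttctcccct
Pam16 (NRF1 palindrome, minus strand, chr16:4624942-4624971): tcgcgtccttGCGCACGCGCtctccggtct
Tomm20 (NRF1 palindrome, reverse complement, minus strand, chr8:126945922-126945951): gggtccatctGCGCGTGCGCaccaggcgtt
Timm50 (YY1 motif, minus strand, chr7:28312017-28312046): ggcgtcagcgcAAGATGGCggcctcggcgg

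Vehicle-treated KP organoids carried more import machinery mRNA on polysomes than vehicle-treated N organoids. Of 23 members, 16 were higher and 0 lower at an adjusted p under 0.25, the threshold the study used, where 20.9% of all genes tested were higher and 22.2% lower. The median log2 fold change of the members was 0.70, beside -0.03 over all genes tested. The called members were all 3 TOM receptors, 3 of 4 channel and small TOM subunits, 4 of 5 TIM23 subunits, Timm22, 3 of 4 small TIM entries, 1 of 3 motor subunits and Timmdc1. At an adjusted p under 0.05, 7 members were higher, against 8% of all genes. Summed marker levels of 3 cell types also stood apart between these vehicle polysome libraries. Duct epithelium markers summed to 9945 to 10479 CPM in N and 5475 to 8900 CPM in KP, fibroblast markers to 0.449 to 0.769 CPM and 0.0517 to 0.126 CPM, and endothelial markers to 0.0863 to 0.343 CPM and 0 to 0.0258 CPM. The fibroblast and endothelial sums are near the floor, as 1 of 5 and 0 of 3 of these markers had counts in every library. The part of these markers in the result was not tested. The levels below are CPM scaled by TMM within each fraction, given for replicates 1, 2 and 3, and the tests are edgeR's quasi-likelihood test with Benjamini-Hochberg adjustment over all 11457 entries.

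**Figure D1:**
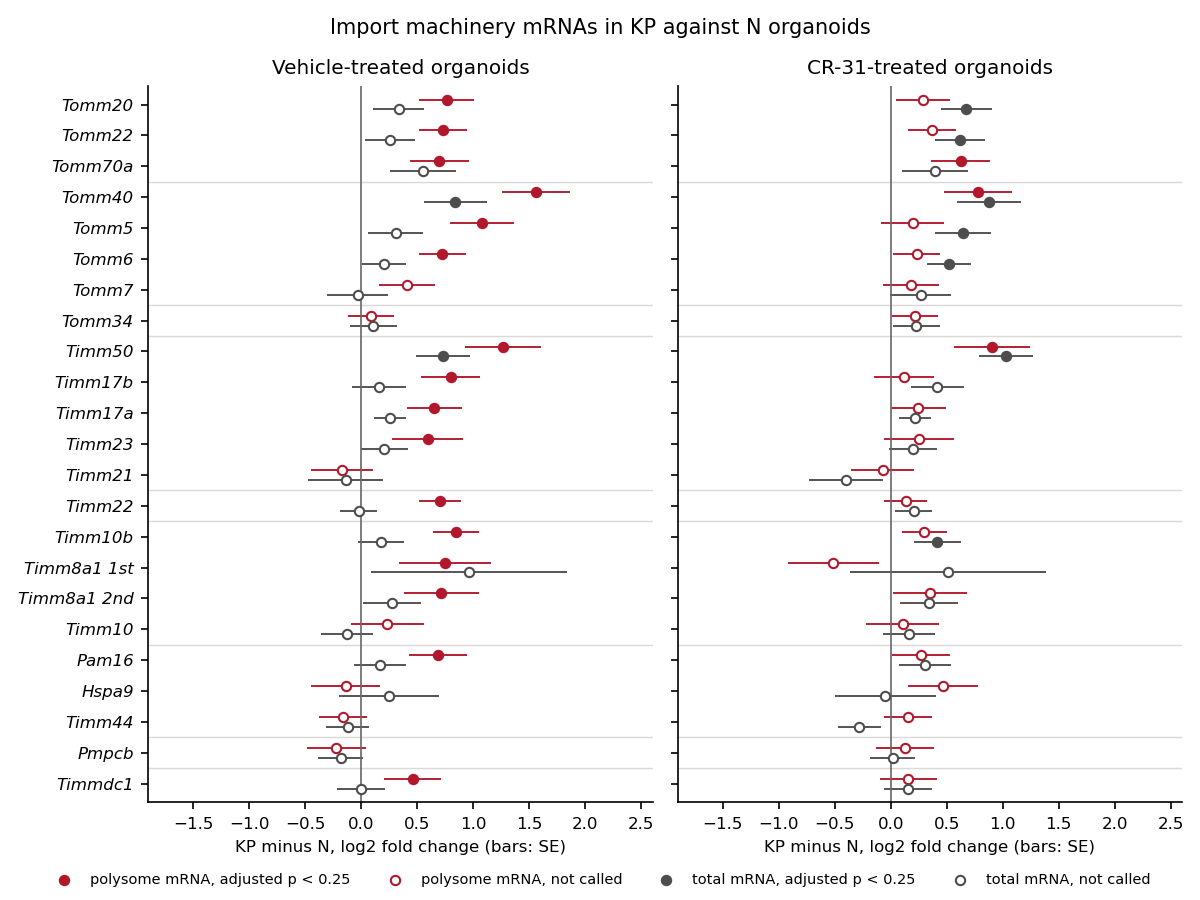
Log2 fold change of KP over N organoids for each member, in vehicle (left) and CR-31 (right), with polysome-associated mRNA in red and total mRNA in grey. Points are fitted values from 3 libraries a group, bars are ± 1 SE, and filled points passed an adjusted p under 0.25: 16 polysome points and 2 total points are filled in vehicle, 3 and 7 in CR-31.

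The widest difference was in Tomm40, the beta-barrel that forms the pore of the TOM complex (chr7:19701313-19715442, GRCm38). Polysome-associated Tomm40 stood at 118, 62.1 and 54.9 CPM in N and at 255, 235 and 202 CPM in KP organoids, so that the lowest KP library was above the highest N library. This was a 2.94-fold difference (log2 fold change 1.56 ± 0.31 (SE), adjusted p = 0.00894). Tomm5, a small subunit of the pore complex (chr4:45105209-45108113), measured 129, 80.8 and 77.9 CPM in N and 220.3, 232 and 153 CPM in KP libraries, again without overlap (log2 fold change 1.08 ± 0.29 (SE), adjusted p = 0.0291). Tomm6, which stabilises the same complex, measured 218, 228 and 179.9 CPM in N and 375, 359.7 and 299.98 CPM in KP, with no overlap (log2 fold change 0.72 ± 0.21 (SE), adjusted p = 0.0394). The remaining small subunit, Tomm7, measured 97.2, 122.7 and 117 CPM in N and 171.6, 146 and 129.8 CPM in KP, and although its groups did not overlap it was not called (log2 fold change 0.41 ± 0.25 (SE), adjusted p = 0.281).

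All 3 receptors, which bind precursors on the cytosolic face, were higher on KP polysomes. Tomm20, the main receptor for cleavable presequences, measured 510.5, 366 and 452 CPM in N and 782, 898 and 574 CPM in KP libraries (log2 fold change 0.76 ± 0.24 (SE), adjusted p = 0.0532). Tomm22, the central receptor that links the others to the pore, measured 193, 208 and 139 CPM in N and 341, 272 and 281 CPM in KP libraries (log2 fold change 0.73 ± 0.21 (SE), adjusted p = 0.0404). For both, every KP library was above every N library. Tomm70a, the receptor for carrier precursors with internal signals, overlapped by a single pair of libraries, with 136, 80.3 and 73.1 CPM in N and 174, 161 and 133 CPM in KP (log2 fold change 0.70 ± 0.26 (SE), adjusted p = 0.0903). Tomm34, a cytosolic co-chaperone named for its association with the TOM complex, stood at 46.9, 33.2 and 50.5 CPM in N and 48.8, 42.5 and 47.4 CPM in KP and was not called (log2 fold change 0.09 ± 0.21 (SE), adjusted p = 0.808).

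Among the TIM23 subunits, Timm50, the receptor that takes precursors over from the TOM complex (chr7:28305516-28312046), stood out. It measured 49.1, 33.1 and 77.9 CPM in N and 110.5, 167 and 107 CPM in KP libraries, a 2.40-fold difference (log2 fold change 1.26 ± 0.34 (SE), adjusted p = 0.0297). Timm17b and Timm17a are alternative forms of the subunit that gates the channel, and both were higher in KP. Timm17b measured 37.97, 38.1 and 61.2 CPM in N and 84.6, 86.6 and 67.3 CPM in KP (log2 fold change 0.80 ± 0.27 (SE), adjusted p = 0.0611), and Timm17a 90.7, 62.7 and 48.5 CPM and 126, 94.2 and 97.6 CPM (log2 fold change 0.65 ± 0.25 (SE), adjusted p = 0.0903). Timm23 itself varied more, with 419, 202 and 204 CPM in N and 523, 391 and 329 CPM in KP, so that N replicate 1 lay among the KP libraries (log2 fold change 0.59 ± 0.31 (SE), adjusted p = 0.213). Timm21 showed no such direction, at 11.7, 12.8 and 17.03 CPM in N and 16.03, 9.41 and 11.4 CPM in KP (log2 fold change -0.17 ± 0.28 (SE), adjusted p = 0.713).

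Timm22, the channel of the carrier translocase, was higher on KP polysomes, at 76.99, 66.6 and 59.7 CPM against 47.2, 41.9 and 35.98 CPM in N (log2 fold change 0.70 ± 0.19 (SE), adjusted p = 0.0301). Timm10b, a small TIM bound to that complex, measured 50.6, 46.7 and 58.4 CPM in N and 95.2, 108 and 76.4 CPM in KP libraries (log2 fold change 0.84 ± 0.20 (SE), adjusted p = 0.0202). Neither gene had overlapping groups. Of the Timm8a1 entries, a small TIM chaperone, the second and more abundant one measured 202, 96.4 and 84.1 CPM in N and 239, 217 and 171 CPM in KP (log2 fold change 0.71 ± 0.33 (SE), adjusted p = 0.161), with N replicate 1 inside the KP range. The first measured 12.7, 6.80 and 6.59 CPM in N and 16.6, 16.5 and 10.7 CPM in KP (log2 fold change 0.75 ± 0.41 (SE), adjusted p = 0.227). Timm10, the partner of Timm9 in the soluble chaperone ring, was not called, with 34.8, 14.6 and 25.97 CPM in N and 34.8, 28.2 and 25.6 CPM in KP (log2 fold change 0.23 ± 0.32 (SE), adjusted p = 0.654).

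The motor and the peptidase differed less uniformly. Pam16, the J-like regulator of the motor, was higher in KP, at 60.2, 62.97 and 41.4 CPM against 29.3, 30.3 and 42.5 CPM in N, where the highest N library was above the lowest KP library (log2 fold change 0.69 ± 0.26 (SE), adjusted p = 0.0891). Hspa9, the matrix Hsp70 that drives the motor, measured 339, 167 and 259 CPM in N and 194, 289 and 210.3 CPM in KP (log2 fold change -0.14 ± 0.31 (SE), adjusted p = 0.793, 95% interval -0.82 to 0.54). Timm44, which tethers Hspa9 to the channel, had a log2 fold change of -0.16 ± 0.21 (SE), adjusted p = 0.626, 95% interval -0.62 to 0.29. Pmpcb, the catalytic subunit of the processing peptidase, measured 41.1, 54.5 and 78.9 CPM in N and 36.8, 63.5 and 49.4 CPM in KP (log2 fold change -0.22 ± 0.26 (SE), adjusted p = 0.590, 95% interval -0.79 to 0.34). These 3 genes were the ones with roles in the matrix that did not pass the test, and their intervals allow changes in either direction. Timmdc1, a Timm-related assembly factor of respiratory complex I, measured 23.3, 23.5 and 31.98 CPM in N and 44.4, 35.4 and 28.4 CPM in KP (log2 fold change 0.46 ± 0.25 (SE), adjusted p = 0.234).

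Counted by library, 11 members had every KP library above every N library in polysome-associated mRNA, and 0 had the reverse, where 18% and 15.9% of all genes tested did so. In each of 24 alternative fits, which changed the scaling, the filter, the tool, the block or the libraries, 9 members were called higher: Tomm5, Tomm6, Tomm20, Tomm22, Tomm40, Timm10b, Timm17b, Timm22 and Timm50. The call of the first Timm8a1 entry was lost in 13 of 24 alternatives. That of Timmdc1 was lost in 17 of 25, which include the omission of the Timm8a1 entries. The count of 16 fell to 9 when both lysates of KP replicate 1 were left out, where the share of all genes called higher was 13%, and to 10 when both lysates of N replicate 2 were left out, where it was 14.9%. It was 14 without the Timm8a1 entries.

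Total mRNA differed in fewer members. In vehicle, 2 of 23 were higher in KP and 0 lower (13.1% and 15.4% of all genes), with a median log2 fold change of 0.20. Summed immune markers stood apart in these libraries, at 5.16 to 14.3 CPM in N and 2.01 to 3.58 CPM in KP. So did acinar markers, at 3.85 to 4.24 CPM and 3.01 to 3.64 CPM, and fibroblast markers near the floor, at 0.422 to 0.814 CPM and 0.116 to 0.245 CPM. The part of these markers was not tested. Tomm40 total mRNA measured 143, 83.9 and 79.6 CPM in N and 187, 198 and 164 CPM in KP (log2 fold change 0.84 ± 0.28 (SE), adjusted p = 0.0893). Timm50 total mRNA measured 60.01, 47.5 and 46.3 CPM in N and 77.1, 93.3 and 83.97 CPM in KP (log2 fold change 0.73 ± 0.24 (SE), adjusted p = 0.0826). Both were therefore higher in KP in both fractions, and in neither did the groups overlap. Tomm5 and Timm17a also had no overlap in total mRNA but were not called, which makes 4 members without overlap where 15.9% of all genes had none in this direction. Leaving out N vehicle replicate 3 ended the call of Tomm40 and brought in the first Timm8a1 entry (6.7% of all genes higher), leaving out both lysates of N replicate 2 ended the call of Tomm40 (9.03%), and without both lysates of N replicate 1 the count was 5 (17.7%). Total mRNA of the first Timm8a1 entry was 10.4, 5.50 and 82.02 CPM in N and 10.8, 89.7 and 90.4 CPM in KP organoids, so that 3 of these 6 libraries stood far above the rest. Its second entry showed no such split, with 160.2, 82.7 and 132 CPM and 149, 148 and 156 CPM.

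**Figure D2:**
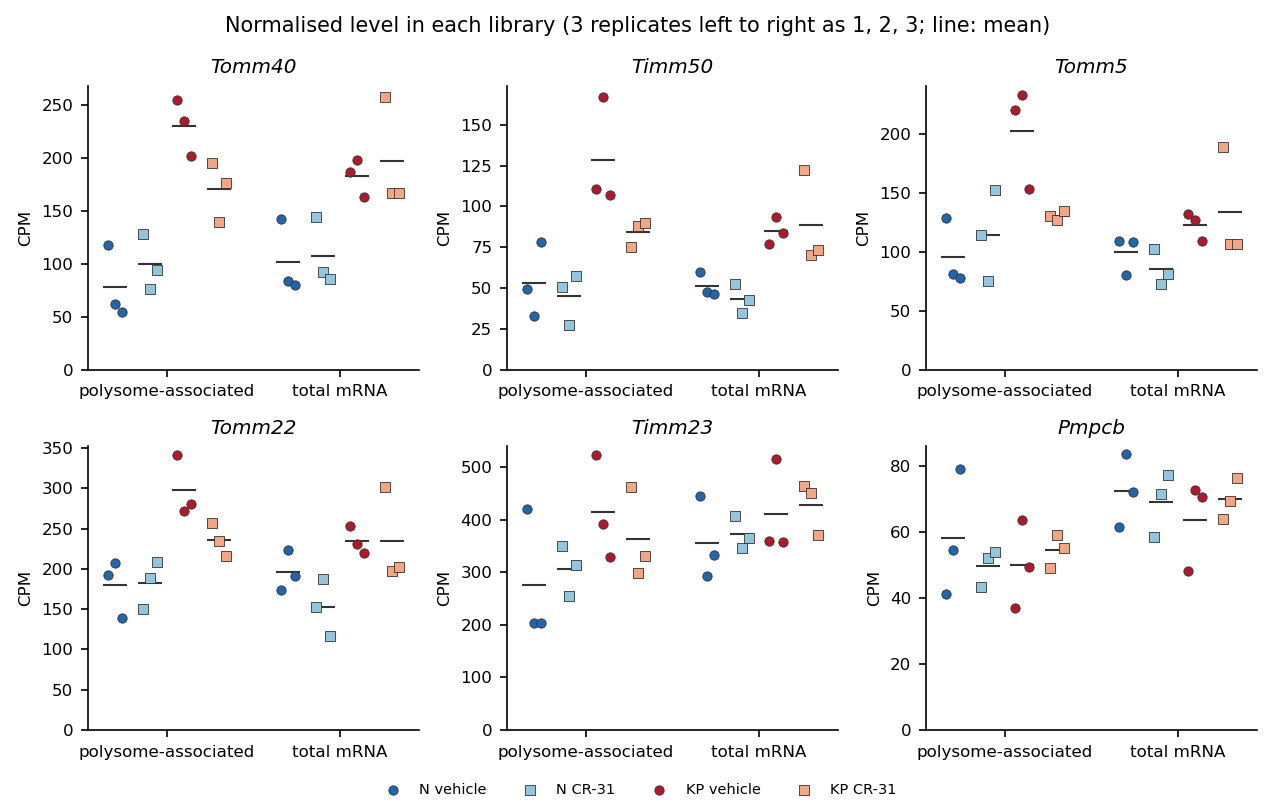
CPM of 6 members in every library, with polysome-associated mRNA on the left and total mRNA on the right of each panel, and the line at the mean of 3 replicates. The KP vehicle libraries (dark red) lie above all N vehicle libraries (dark blue) on polysomes for Tomm40, Timm50, Tomm5 and Tomm22, the groups overlap for Timm23 and Pmpcb, and the CR-31-treated KP libraries (orange squares) of Tomm40, Timm50, Tomm5 and Tomm22 lie below the vehicle ones on polysomes.

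Translational efficiency, the change in polysome-associated mRNA beyond the change in total mRNA, was the fraction-by-group term of a fit that blocked on lysates. By edgeR with all lysates, no member and no gene was called between KP and N vehicle organoids (0% in each direction), whereas DESeq2 called 2 members and a regression 7, as given below. The member median was 0.40, with 17 of 23 members above 0, beside 0.00 over all genes. Over the alternative fits the member median ran from 0.24 to 0.59. At an unadjusted p under 0.05, 6 members were higher, where 5.76% of all genes were. The smallest p-values were those of Tomm40 (0.71 ± 0.20, unadjusted p = 0.00306), Timm22 (0.68 ± 0.23, unadjusted p = 0.0106) and Tomm5 (0.73 ± 0.29, unadjusted p = 0.0233), all with an adjusted p of 0.434 by edgeR. The lowest values were those of the first Timm8a1 entry, at -0.92 ± 1.13, and of Hspa9, at -0.45 ± 0.37.

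A regression of polysome levels on total levels, which is the form of the study's own efficiency analysis, gave another count for the same contrast. It called 7 members higher, where 5.24% of all genes were higher and 5.31% lower: Tomm5 at 0.91 ± 0.31 (SE), adjusted p = 0.213, Timm10b at 0.79 ± 0.22 (SE), adjusted p = 0.176, Tomm40 at 0.76, Timm17b at 0.69, Tomm22 at 0.66, Tomm6 at 0.65 and Timm22 at 0.64. DESeq2 called Tomm40 and Timm22 (1.29% of all genes). Without both lysates of N replicate 3, edgeR called 8 members higher and the first Timm8a1 entry lower, where 20% and 15.8% of all genes were called. Without N vehicle replicate 3 alone it called 4 members higher and 1 lower, where 8.32% and 10.4% of all genes were called. Without N CR-31 replicate 3 it called only Tomm40, which was higher, where 0.271% of all genes were higher and 1.22% lower. Leaving out that replicate thus moved the count of called members and of called genes together.

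In KP organoids, 1 h of CR-31 was followed by lower values on polysomes for most members, but no member was called by the unblocked fit. The median log2 fold change was -0.31, beside -0.02 over all genes, and 19 of 23 members were below 0. In 17 members the CR-31 library was below the vehicle library of the same replicate number in all 3 replicates, and in 2, Hspa9 and Timm21, it was above in all 3. Of all genes tested, 30.5% were lower and 28.9% higher in all 3 replicates. At an unadjusted p under 0.05, 3 members were lower and 0 higher, where 2.41% of all genes were lower and 1.16% higher. The smallest unadjusted p-values were those of Timm22 (-0.46 ± 0.19, unadjusted p = 0.0327), Timm10b (-0.48 ± 0.20, unadjusted p = 0.0369) and Tomm5 (-0.63 ± 0.28, unadjusted p = 0.0470), with an adjusted p of 1.00 by edgeR for each. No gene of the table was called by the unblocked edgeR fit (0% in each direction), and DESeq2 called 0 members as well.

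Vehicle and CR-31 lysates of one replicate number deviated together in these data, so the fit with the replicate number as a block bears on this comparison. With that block, 8 members were called lower and 0 higher, where 11% of all genes were lower and 8.34% higher. Timm17b changed by -0.52 ± 0.15 (SE), adjusted p = 0.193, and Timm50 by -0.58 ± 0.17 (SE), adjusted p = 0.193. Timm10b changed by -0.47 ± 0.17 (SE), adjusted p = 0.197, and Tomm5 by -0.61 ± 0.24 (SE), adjusted p = 0.219. The others were Timm22 (-0.45), Tomm40 (-0.44), Tomm6 (-0.45) and Timmdc1 (-0.33), with adjusted p-values from 0.213 to 0.247.

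Library by library, polysome-associated Tomm5 stood at 220.3, 232 and 153 CPM in vehicle and 129.9, 127 and 135 CPM in CR-31. Timm50 stood at 110.5, 167 and 107 CPM in vehicle and 75.2, 88.1 and 89.9 CPM in CR-31. Timm17b stood at 84.6, 86.6 and 67.3 CPM and 51.5, 54.9 and 59.5 CPM. In all of these every CR-31 library was below every vehicle library, as it was for Timm22, Timm10b, Tomm40, Tomm6 and Tomm22. These 8 members without overlap compare with 10.5% of all genes. Tomm40 moved from 255, 235 and 202 CPM to 195, 140.0 and 177 CPM, which remained above its N libraries in vehicle. The replicates differed in size: within replicate numbers 1, 2 and 3, the member median was -0.35, -0.44 and -0.07. All tested genes with coding sequences under 500 nucleotides had -0.30, -0.28 and -0.08. Those of 500 nucleotides or more had 0.019, 0.013 and 0.002, and the members fall in both classes. Within the library-name prefix that held KP vehicle replicates 1 and 2 with CR-31 replicate 1 the member median was -0.29, and within the other -0.13. The KP vehicle libraries that define the higher levels in KP above are also the reference here, so the comparisons share those samples.

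**Figure D3:**
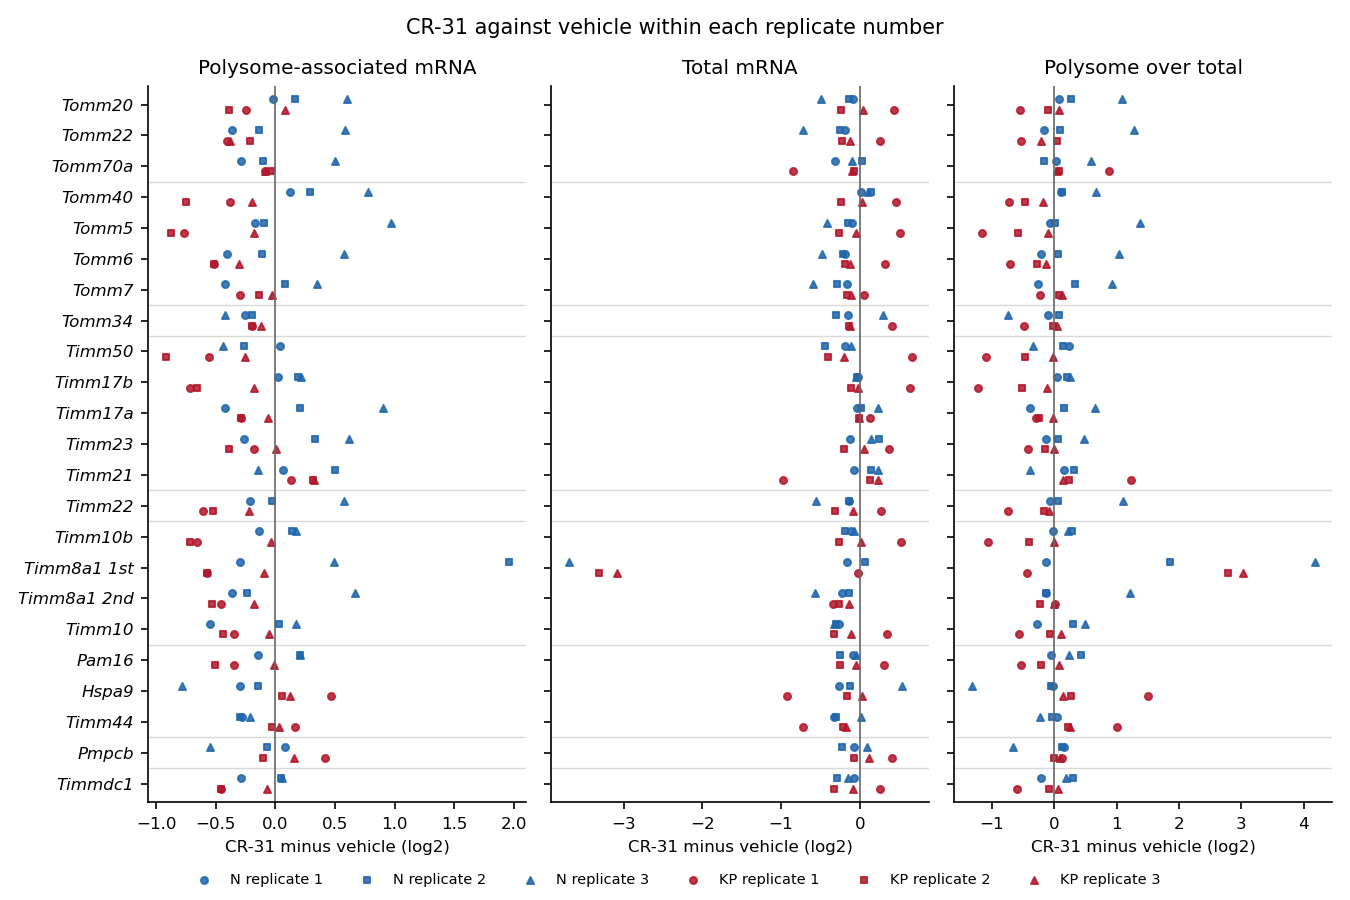
Log2 change from vehicle to CR-31 within each replicate number, for polysome-associated mRNA, total mRNA and their ratio, in N (blue) and KP (red) organoids. On polysomes 17 of 23 members lie below 0 in all 3 KP replicates, where 30.5% of all genes tested do, while N replicates have medians of -0.26, 0.03 and 0.35.

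Total mRNA of the members had a median log2 fold change of 0.01 after CR-31 in KP organoids, with medians of 0.31, -0.22 and -0.09 in replicates 1, 2 and 3. In all 3 replicates 4 members were lower and 0 higher, where 11.6% and 15.6% of all genes tested were. For Timm44 and both Timm8a1 entries every CR-31 library was below every vehicle library, and no member had the reverse, where 1.76% and 4.15% of all genes did so. The ratio of polysome-associated to total mRNA had a median change of -0.20, which was -0.54 in replicate 1, -0.11 in replicate 2 and 0.04 in replicate 3. The median was thus lowest in replicate 1, and it was 0.03 within the prefix that held vehicle replicate 3 and CR-31 replicates 2 and 3 and -0.44 within the other. No member was called for total mRNA or efficiency by edgeR or DESeq2, and no gene by edgeR with or without the replicate block (0% in each direction). In total mRNA the smallest p-values were those of the first Timm8a1 entry (-2.65 ± 0.92, unadjusted p = 0.0140), the only one under 0.05 (0.0698% of all genes were lower), and of Timm44 (-0.35 ± 0.19, unadjusted p = 0.0922) and Tomm70a (-0.32 ± 0.30, unadjusted p = 0.297), with an adjusted p of 1.00 for each. The first Timm8a1 entry stood at 10.8, 89.7 and 90.4 CPM in vehicle and 10.6, 9.02 and 10.7 CPM in CR-31. In efficiency, 2 members were lower and 1 higher at an unadjusted p under 0.05, where 3.27% and 2.16% of all genes were. These were Timm17b (-0.62 ± 0.25, unadjusted p = 0.0282), Tomm40 (-0.46 ± 0.20, unadjusted p = 0.0351) and, in the other direction, Timm44 (0.49 ± 0.22, unadjusted p = 0.0412), each with an adjusted p of 0.530 by edgeR.

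N organoids gave no called member in either fraction or in efficiency under CR-31 by edgeR or DESeq2, and no gene was called by edgeR without the replicate block (0% in each direction). With the block within organoid types, still no member was called, and 0.0524% of all genes were higher and 0.0175% lower in total mRNA. The member median was 0.06 on polysomes, -0.18 in total mRNA and 0.16 in efficiency. Replicates spread widely on polysomes, with member medians of -0.26, 0.03 and 0.35. All tested genes with coding sequences under 500 nucleotides had -0.23, 0.04 and 0.35. Those of 500 nucleotides or more had 0.018, -0.003 and -0.051, and the members fall in both classes. In total mRNA 13 members were lower in all 3 replicates, where 23% of all genes tested were. At an unadjusted p under 0.05, 0 members differed on polysomes and in efficiency, and 1 was lower in total mRNA, where 0.332%, 1.78% and 0.733% of all genes were lower and 0.0873%, 1.09% and 1.88% higher. That member was the first Timm8a1 entry, at 10.4, 5.50 and 82.02 CPM in vehicle and 9.24, 5.76 and 6.31 CPM in CR-31 (-2.20 ± 0.91, unadjusted p = 0.0325, adjusted p = 1.00), followed by Tomm22 (-0.37 ± 0.22, unadjusted p = 0.127) and Timm22 (-0.27 ± 0.16, unadjusted p = 0.129). On polysomes the smallest p-values were those of the first Timm8a1 entry (0.82 ± 0.41, unadjusted p = 0.0686), Tomm34 (-0.30 ± 0.21, unadjusted p = 0.170) and Hspa9 (-0.40 ± 0.31, unadjusted p = 0.219). In efficiency they were those of Tomm20 (0.47 ± 0.22, unadjusted p = 0.0539), the first Timm8a1 entry (1.79 ± 1.08, unadjusted p = 0.118) and Timm22 (0.37 ± 0.23, unadjusted p = 0.137). The direction of Timm22 turned in the regression on total mRNA, where it was -0.12. Of the pore subunits, Tomm40 stood at 118, 62.1 and 54.9 CPM in vehicle and 128, 76.1 and 94.1 CPM in CR-31 on polysomes, and Tomm5 at 129, 80.8 and 77.9 CPM and 114, 75.5 and 152 CPM, where replicate 3 was higher in CR-31 than in vehicle for both.

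The difference between the CR-31 changes of KP and N organoids was tested directly. No member and no gene (0% in each direction) was called by edgeR with all lysates and no replicate block, with adjusted p-values of at least 0.420 in efficiency and 0.999 on polysomes. The member median of the difference was -0.36 on polysomes, with 18 of 23 members below 0, 0.16 in total mRNA and -0.35 in efficiency. Over the alternative fits these medians ran from -0.49 to -0.16, from 0.003 to 0.29 and from -0.69 to -0.20. In efficiency, Tomm40 (-0.75 ± 0.28, unadjusted p = 0.0173), Tomm5 (-1.04 ± 0.41, unadjusted p = 0.0226) and Timm17b (-0.78 ± 0.36, unadjusted p = 0.0464) had the smallest p-values. At an unadjusted p under 0.05, 4 members were lower in efficiency and 0 higher, where 5.03% and 5.67% of all genes were, 2 were lower on polysomes (1.66%), and 0 were lower or higher in total mRNA (0.0349% and 0.105%). On polysomes the smallest p-values were those of Tomm5 (-0.88 ± 0.40, unadjusted p = 0.0488), the first Timm8a1 entry (-1.26 ± 0.58, unadjusted p = 0.0497) and Timm22 (-0.57 ± 0.27, unadjusted p = 0.0541). In total mRNA they were those of Tomm22 (0.36 ± 0.32, unadjusted p = 0.272), Tomm6 (0.32 ± 0.28, unadjusted p = 0.278) and Tomm20 (0.34 ± 0.32, unadjusted p = 0.311). DESeq2 called 3 members lower in efficiency, Tomm5, Tomm20 and Tomm40 (2.07% of all genes), and without N CR-31 replicate 2 edgeR called Tomm5, Timm22 and Tomm40 lower and Hspa9 higher, where 6.87% of all genes were lower and 9.86% higher. In 3 members the polysome-associated level, and in 3 the ratio to total mRNA, moved one way in every KP replicate and the other way in every N replicate, where 6.74% and 9.88% of all genes tested did.

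After CR-31, 3 members were called higher and 0 lower on KP than on N polysomes, with a median of 0.23. The shares of all genes called were 11.2% higher and 13.8% lower, also below those in vehicle (20.9% and 22.2%), and 3 of 23 members is close to the share of all genes called higher. Summed immune markers stood apart in these libraries, at 6.77 to 13.2 CPM in N and 1.85 to 3.41 CPM in KP. Acinar markers did so at 3.60 to 4.23 CPM and 3.17 to 3.55 CPM. Fibroblast and endothelial markers, near the floor, were also higher in N without overlap. The part of these markers was not tested. Timm50 measured 50.4, 27.6 and 57.3 CPM in N and 75.2, 88.1 and 89.9 CPM in KP (log2 fold change 0.90 ± 0.34 (SE), adjusted p = 0.132). Tomm40 measured 128, 76.1 and 94.1 CPM in N and 195, 140.0 and 177 CPM in KP (log2 fold change 0.78 ± 0.30 (SE), adjusted p = 0.144). Tomm70a measured 111, 74.8 and 103 CPM in N and 164, 157 and 125 CPM in KP (log2 fold change 0.62 ± 0.26 (SE), adjusted p = 0.179). The groups of all 3 were apart, and so were those of Tomm22, which makes 4 members where 14.4% of all genes were apart in this direction. None of these calls held in every alternative: the count was 0 without KP CR-31 replicate 1 (4.22% of all genes higher) or N CR-31 replicate 2 (7.78%), 1 without KP CR-31 replicate 3 (7.15%) and 8 without N CR-31 replicate 3 (11.8%).

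In total mRNA after CR-31, 7 members were higher in KP and 0 lower (18.9% and 21% of all genes), with a median of 0.30. Summed immune markers stood apart in these libraries, at 6.04 to 24.5 CPM in N and 1.87 to 4.30 CPM in KP. So did fibroblast markers near the floor, at 0.402 to 0.641 CPM and 0.0956 to 0.195 CPM. The part of these markers was not tested. Timm50 led, with 52.8, 34.9 and 42.7 CPM in N and 122, 70.4 and 73.2 CPM in KP (log2 fold change 1.03 ± 0.24 (SE), adjusted p = 0.0236). The others were Tomm40 (0.88 ± 0.28 (SE), adjusted p = 0.0683), Tomm20 (0.67 ± 0.23 (SE), adjusted p = 0.0763), Tomm5 (0.65 ± 0.25 (SE), adjusted p = 0.108), Tomm22 (0.62 ± 0.22 (SE), adjusted p = 0.0935), Tomm6 (0.52 ± 0.20 (SE), adjusted p = 0.108) and Timm10b (0.42 ± 0.21 (SE), adjusted p = 0.2004). In several of these KP CR-31 replicate 1 was the highest library, for instance Tomm5 with 188, 106 and 106 CPM in KP and 102, 72.8 and 81.3 CPM in N. Without KP CR-31 replicate 1 only Timm50 was called (0.72 ± 0.20 (SE), adjusted p = 0.0822), where 8.8% of all genes were higher.

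Polysome association within a group was given by the log2 ratio of polysome-associated to total mRNA, relative to all genes. In N vehicle organoids 6 members were lower on polysomes and 0 higher (6.42% and 8.86% of all genes): Timm23 (-0.49 ± 0.19 (SE), adjusted p = 0.187), Tomm40 (-0.47 ± 0.14 (SE), adjusted p = 0.0855), Timm17a (-0.46 ± 0.16 (SE), adjusted p = 0.124), Tomm20 (-0.45 ± 0.16 (SE), adjusted p = 0.141), Pmpcb (-0.41 ± 0.15 (SE), adjusted p = 0.171) and Pam16 (-0.34 ± 0.14 (SE), adjusted p = 0.219). For Tomm40, the ratios of the 3 lysates were -0.34, -0.47 and -0.59. The most positive member was Hspa9, at 0.10, 0.41 and 0.58 in the 3 lysates, which was not called (0.36 ± 0.26 (SE), adjusted p = 0.495). The lowest fitted value was that of the first Timm8a1 entry (-0.90 ± 0.80 (SE), adjusted p = 0.603), with ratios of 0.23, 0.27 and -3.69, and it was not called either.

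KP vehicle organoids had 5 members higher on polysomes (14.2% of all genes) and 2 lower (13.3%). The higher ones were Timm17b (0.64 ± 0.18 (SE), adjusted p = 0.0774), Tomm5 (0.60 ± 0.20 (SE), adjusted p = 0.115), Timm10b (0.47 ± 0.17 (SE), adjusted p = 0.133), Timm22 (0.40 ± 0.16 (SE), adjusted p = 0.169) and Tomm6 (0.38 ± 0.17 (SE), adjusted p = 0.196). For Timm17b the 3 lysates gave 0.67, 0.82 and 0.42, all above 0. The lower ones were Pmpcb (-0.46 ± 0.15 (SE), adjusted p = 0.111) and the first Timm8a1 entry (-1.82 ± 0.80 (SE), adjusted p = 0.193), whose ratios of 0.52, -2.53 and -3.16 split in the way its total mRNA did.

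After CR-31 the called sets were small. N organoids had 0 higher (7.81%) and Pmpcb lower (10.8%; -0.54 ± 0.15 (SE), adjusted p = 0.0845). Their highest value was that of the first Timm8a1 entry, at 0.10, 2.13 and 0.49 in the 3 lysates (0.89 ± 0.73 (SE), adjusted p = 0.508). KP organoids had Tomm70a (0.62 ± 0.17 (SE), adjusted p = 0.0441) and Timm21 (0.56 ± 0.25 (SE), adjusted p = 0.219) higher (13.7%) and Pmpcb lower (6.54%; -0.39 ± 0.15 (SE), adjusted p = 0.156). Tomm70a ratios were 1.17, 0.34 and 0.36 and Timm21 ratios 1.51, 0.32 and -0.13 in the 3 lysates, with replicate 1 the highest in both. Pmpcb was thus called lower on polysomes in all 4 conditions, with ratios of -0.65, -0.65 and 0.08 in N vehicle, -0.50, -0.53 and -0.58 in N CR-31, -0.49, -0.29 and -0.60 in KP vehicle and -0.36, -0.29 and -0.52 in KP CR-31 lysates, of which only N vehicle replicate 3 was above 0. Leaving out 1 lysate at a time took the N vehicle count of lower members from 6 to between 0, without N vehicle replicate 2 (0.148% of all genes lower), and 7, without KP CR-31 replicate 1 (10.1%). It took the KP vehicle count of higher members from 5 to between 0, without KP vehicle replicate 1 or 2 (0.384% and 0.297% of all genes higher), and 9, without KP CR-31 replicate 1 or N vehicle replicate 3 (17.5% and 18.5%). Pmpcb lost its call in CR-31 without any 1 of the 3 CR-31 lysates of the same organoid type, and without KP CR-31 replicate 1 neither Tomm70a nor Timm21 was called in KP. In vehicle Pmpcb lost its call in N without N vehicle replicate 1 or 2, without KP vehicle replicate 3 or without the filter on low counts, and in KP without any 1 of the KP vehicle lysates.

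**Figure D4:**
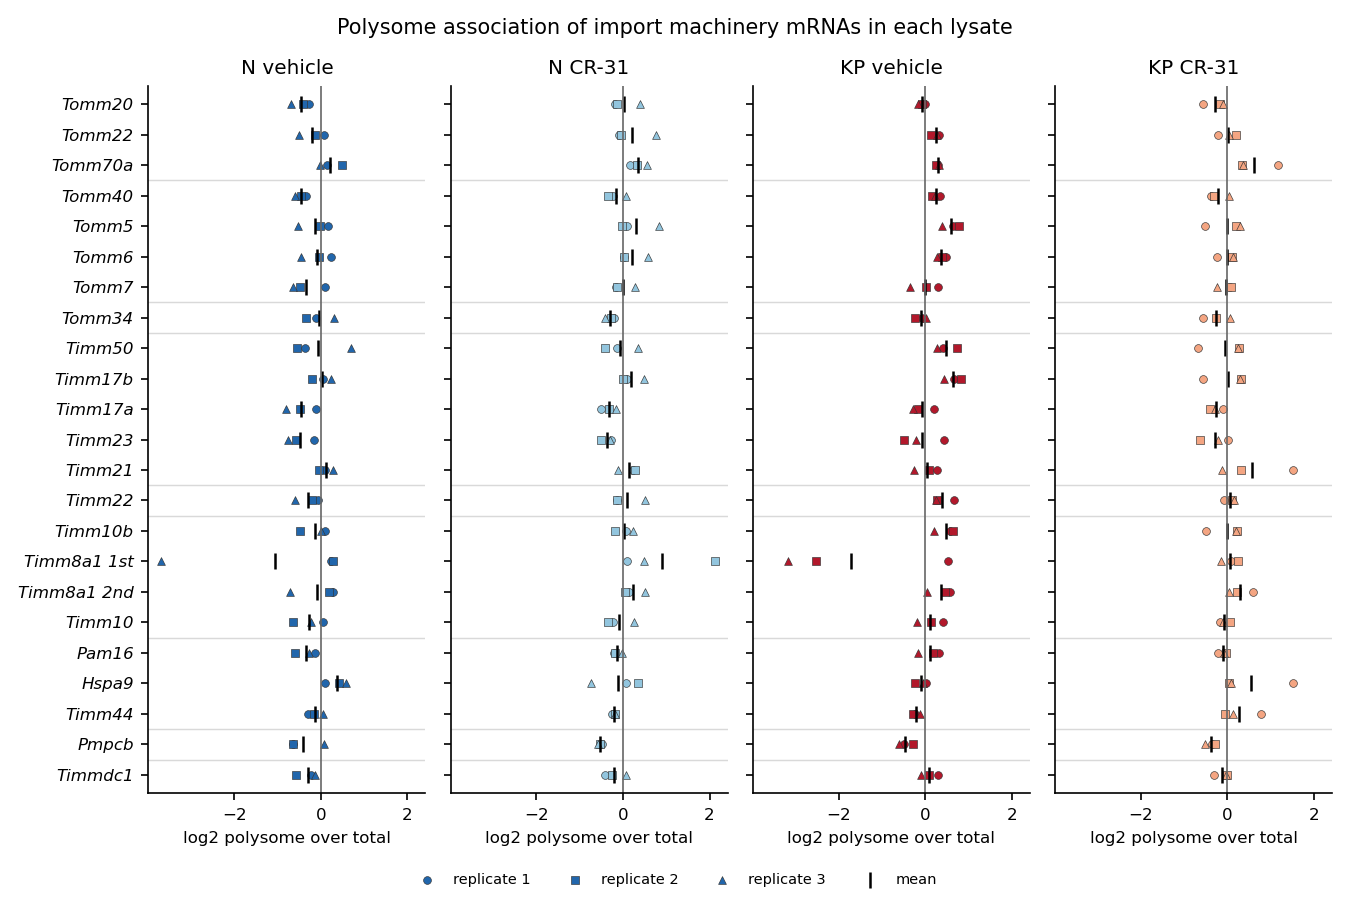
Log2 ratio of polysome-associated to total mRNA for each member in every lysate of the 4 conditions, with the mean as a bar. Pmpcb lies below 0 in all but 1 lysate, Timm17b and Tomm5 lie above 0 in all 3 KP vehicle lysates, and the first Timm8a1 entry is far below 0 in N vehicle replicate 3 and KP vehicle replicates 2 and 3.

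Many import subunits are small proteins, and coding length moved with several of these differences, though not all, across the whole table. Coding sequences were taken from the GENCODE M21 annotation without the stop codon. The longest among the transcripts of a gene was used, so shorter forms were not considered. Those of the members ran from 165 nucleotides for Tomm7 to 2037 nucleotides for Hspa9. Their median was 516 nucleotides, beside 1395 over the 11156 tested genes with a length (97.4%). Over those genes, which are not independent replicates, Spearman's rho of coding length with the KP against N difference in vehicle was -0.25 on polysomes and -0.55 in efficiency, and with the CR-31 change on KP polysomes 0.40. Over 22 members, leaving out the first Timm8a1 entry, which shares its length with the second, the same values were -0.29, -0.41 and 0.42. For the CR-31 change in N organoids they were -0.33 on polysomes, 0.57 in total mRNA and -0.70 in efficiency over the members, beside -0.13, 0.21 and -0.21 over all genes. Over all genes rho was 0.07 for KP against N in vehicle total mRNA. After CR-31 it was -0.05 for KP against N on polysomes and -0.02 in total mRNA. For the CR-31 change in KP total mRNA it was 0.01. The relation also differed between replicates of a group. Across all genes, rho of coding length with a library's deviation from the mean of its fraction was 0.38, 0.19 and -0.31 in N CR-31 polysome replicates 1, 2 and 3, where the median deviation of the members without the Timm8a1 entries was -0.29, -0.32 and 0.11. In KP vehicle polysome libraries rho was -0.28, -0.24 and -0.18, and the median deviation 0.56, 0.34 and 0.16.

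Split at 500 nucleotides, the 9 shorter members had a median KP against N difference of 0.72 on polysomes, beside 0.37 for all 942 shorter genes, and the 13 longer members 0.59, beside -0.07 for all 10214 longer genes. In efficiency the shorter members had 0.44, beside 0.35, and the longer members 0.39, beside -0.04. The CR-31 change on KP polysomes was -0.34 in shorter members, beside -0.25, and -0.19 in longer ones, beside 0.01. In the difference between the CR-31 changes of KP and N in efficiency, the shorter members had -0.64, beside -0.38 for all shorter genes. The CR-31 change of shorter members in N was 0.31, beside 0.20, in efficiency and -0.30, beside -0.17, in total mRNA. Members were not tested against other genes of their length. The 4 members of 1000 to 1500 nucleotides split. Tomm40, at 1083 nucleotides, and Timm50, at 1059 nucleotides, were above the upper quartile of the 2561 genes of that length, which was 0.44 on polysomes and 0.30 in efficiency. Timm44, at 1356 nucleotides, with -0.16 on polysomes and -0.08 in efficiency, and Pmpcb, at 1467 nucleotides, with -0.22 and -0.05, were below the medians of those genes, -0.01 and 0.05. The part of coding length in these results was not tested beyond this split.

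**Figure D5:**
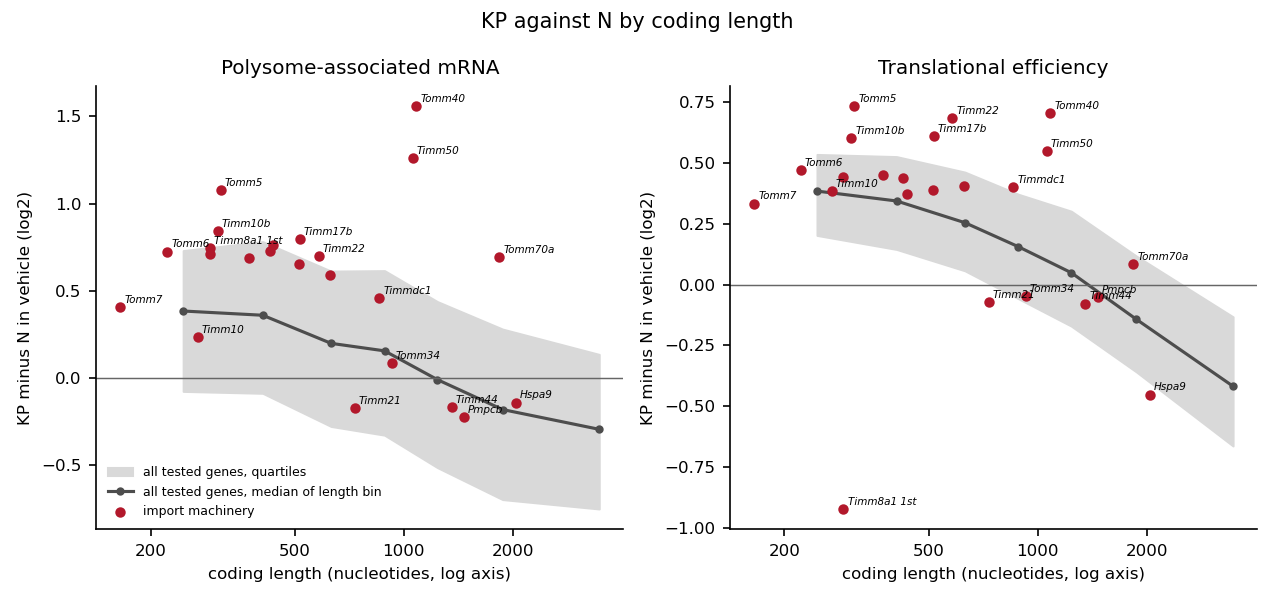
KP against N difference in vehicle (log2) by coding length (log axis), on polysomes (left) and in efficiency (right), with members as red points and all tested genes as the median (line) and quartiles (band) of length bins. The line falls from short to long mRNAs in both panels, and Tomm40 and Timm50 lie above the band on both sides; some crowded points carry no name.

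Beside other nuclear-encoded mitochondrial genes the import machinery did not stand alone. In the KP against N comparison of polysome-associated mRNA in vehicle, 20.9% of all genes tested were higher and 22.2% lower. There 44 of 69 mitochondrial ribosomal protein mRNAs were higher (median log2 fold change 0.62) and 27 of 32 complex I subunits (0.78), with 0 lower in both. Of 18 measured genes from a wider import list, 8 were higher and 2 lower (median 0.36). The higher ones included Mtch2, an insertase of the outer membrane (1.00), Gfer, the sulfhydryl oxidase of the intermembrane space (0.93), Mtx1, of the sorting machinery (0.92), Hspe1, the matrix co-chaperonin (0.87), and Samm50, the sorting pore (0.76). The lower ones were Xpnpep3, an intermediate-cleaving peptidase (-0.92), and Grpel2, a nucleotide exchange factor of the motor (-0.78). After CR-31 in KP organoids the median changes on polysomes were -0.26, -0.34 and -0.17 for these 3 lists, in the same order, beside -0.31 for the members. The differences between the lists were not tested.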

How the data were processed

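The authors aligned the reads with HISAT2, discarded multi-mapped reads and counted reads per RefSeq gene with RPKMforgenes. The deposited table holds their raw read counts and RPKM values for all 24 libraries. The sources name the human build hg38 and GRCh38 although the entries are mouse RefSeq transcripts, and no coordinate comes from the table. Of its entries, 1042 were joint and stayed out of all tests.

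Counts of the 11457 single-symbol entries above 0 in all 24 libraries were TMM-scaled and tested by edgeR 4.0.16 (R 4.3.3), in a model of 4 groups within each fraction, or of 24 libraries with the lysate as a block for efficiency and polysome association. P-values were adjusted by Benjamini-Hochberg and called under 0.25. Ratios per lysate used a prior count of 0.5. The regression on total mRNA used limma 3.58.1, and DESeq2 1.42.0 was an alternative. Tests were checked on simulated counts drawn independently for each library. That check does not cover the shared deviation of same-numbered libraries. Alternatives were other scalings, filters and tools, replicate blocks, the library-name prefix as a covariate, the regression, and leaving out each lysate or both lysates of a number. A stricter threshold of 0.05 and omission of the Timm8a1 entries were added after seeing the data.

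Replicate numbers come from the labels. Same-numbered vehicle and CR-31 libraries deviated together (r = 0.45 to 0.80 in KP and 0.55 to 0.89 in N, above 0.1 in 6 of 6 pairs each), whereas N and KP libraries did so in 2 of 6 pairs in vehicle and 2 of 6 in CR-31. Named in full are the called members of each comparison, or the 3 with the smallest p where none was called, the most abundant member of each role, and the extremes of polysome association. The KP genotype is not reported here in full. Members and lists were chosen with earlier results of these data known. Promoter windows were RefSeq sequences on GRCm38.p6, which held 19 of 22 genes.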

Additional observations from a re-analysis of the deposited data

Results flagged for a closer look

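In 3 members the polysome-associated level moved one way from vehicle to CR-31 in every KP replicate and the opposite way in every N replicate, and in the same 3 the polysome to total ratio did so too. Of all genes tested, 6.74% did so on polysomes and 9.88% in the ratio. Timm17b, a TIM23 subunit, changed on polysomes by -0.72, -0.66 and -0.18 in KP and by 0.02, 0.19 and 0.21 in N replicates 1, 2 and 3 (log2), and the fitted difference KP minus N was -0.68 ± 0.37 (SE, adjusted p = 0.999 by edgeR). Tomm40, the TOM pore, changed by -0.38, -0.75 and -0.19 in KP and 0.12, 0.29 and 0.78 in N, a difference of -0.78 ± 0.42 (adjusted p = 0.999 by edgeR). Hspa9, the motor Hsp70, moved the other way, by 0.46, 0.06 and 0.12 in KP and -0.29, -0.15 and -0.78 in N, a difference of 0.61 ± 0.44 (adjusted p = 0.999 by edgeR).

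In efficiency, the difference was -0.78 ± 0.36 for Timm17b, -0.75 ± 0.28 for Tomm40 and 1.09 ± 0.52 for Hspa9, each with an adjusted p of 0.420 by edgeR. The efficiency changes of Hspa9 were 1.51, 0.26 and 0.14 in KP and -0.03, -0.06 and -1.33 in N, so KP replicate 1 and N replicate 3 gave most of the difference. None of these differences, and no gene of the table, passed the threshold by edgeR with all lysates and no replicate block, on polysomes or in efficiency. In efficiency, DESeq2 called Tomm40 lower, and edgeR without N CR-31 replicate 2 called Tomm40 lower and Hspa9 higher.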

How the results depend on the processing

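The median log2 fold change over all members in KP against N vehicle polysomes ran from 0.57 to 0.78 over the alternatives, and the count of 16 higher members was 13 to 16 under the other scalings, filters and DESeq2. Leaving out lysates gave 9 to 17 higher and 0 to 1 lower on polysomes, 1 to 5 higher in total mRNA, and 0 to 8 higher and 0 to 1 lower in efficiency. In CR-31 the ranges were 0 to 9 higher and 0 to 1 lower on polysomes (3 with all lysates) and 1 to 8 higher and 0 to 2 lower in total mRNA (7). The difference between the CR-31 changes gave 0 to 1 higher and 0 to 3 lower in efficiency. For polysome against total mRNA the ranges were 0 to 7 lower in N vehicle, 0 to 1 higher and 0 to 3 lower in N CR-31, 0 to 9 higher and 0 to 3 lower in KP vehicle, and 0 to 4 higher and 0 to 1 lower in KP CR-31. The share of all genes called also moved when lysates were left out, as given above for several of these fits. These ranges therefore do not describe the members alone.

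At an adjusted p under 0.05 the polysome count of higher members was 7 in vehicle and 0 in CR-31 (8% and 2.44% of all genes), that of total mRNA 0 and 1 (3.6% and 5.11%), and polysome against total mRNA kept 1 higher member in KP CR-31 (6.55%) and 0 in the other sets. In efficiency, DESeq2 called 2 higher in KP against N vehicle and 3 lower in the difference between CR-31 changes, and the regression on total mRNA called 7 higher. In N CR-31 polysome against total mRNA, DESeq2 and upper-quartile scaling each called 1 higher, in KP CR-31 the fit without the filter on low counts called 1 higher, and without the Timm8a1 entries 1 member was lower in KP vehicle. The cause of these changes was not tested.

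With the replicate block within organoid types, 8 members were lower on KP polysomes after CR-31, against 0 without it, and the pairing changed no other count of called members. A replicate block shared by N and KP, whose numbers do not pair, left the KP against N counts at 16 and 3 on polysomes in vehicle and CR-31 and at 7 in CR-31 total mRNA, and gave 3 in vehicle total mRNA. The efficiency change of Timm22 in N organoids after CR-31, 0.37 with all lysates, was -0.12 in the regression and ran from -9.81e-05 without both N replicate 3 lysates to 0.64 without both N replicate 1 lysates. With 3 lysates a group, a member's difference had a standard error of 0.19 to 0.41 in vehicle polysomes, which limits the changes this design could resolve.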

Other observations

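Import genes held only in joint entries, whose counts cannot be split between the merged genes, were left out of all tests. The entry of Timm13, a small TIM chaperone, with Tmprss9 stood at 138 ± 20.7 CPM (SD, n = 3) on polysomes of N vehicle and at 265 ± 52.5 CPM of KP vehicle organoids, and at 189.6 ± 12.9 CPM of KP organoids after CR-31. The entry of Grpel1, the exchange factor of the motor, with Tada2b stood at 94.1 ± 11.5 CPM and 129 ± 25.7 CPM in vehicle. The entry of Pmpca, the partner of Pmpcb, with Inpp5e stood at 119.7 ± 32.1 CPM and 139 ± 4.61 CPM. The entry of Dnajc19, a motor J-protein, with Fxr1 went the other way, at 159 ± 26.1 CPM in N and 102 ± 11.3 CPM in KP. The entry of Timm8b with 2 other symbols stood at 151 ± 29.1 CPM and 143 ± 15.3 CPM, that of Timm9 with Tomm20l at 18.2 ± 9.82 CPM and 21.1 ± 4.76 CPM, and that of Tomm40l with 2 other symbols at 61.04 ± 7.46 CPM and 77.4 ± 11.9 CPM. These CPM values are not scaled by TMM.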
